A study of Mus musculus with 8 samples.

Results

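The data compared mouse leukaemic progenitors from mice given AG120 alone with the same cells from mice given vehicle. The comparison used 4 of the 8 libraries of the series: AG120 replicates 1 and 2 against Vehicle replicates 1 and 2, over all 12294 genes of the deposited expression table. AG120 is ivosidenib, an inhibitor of the mutant form of the enzyme isocitrate dehydrogenase 1. The cells, named I1DN, grew in transplanted mice that received AG120, vehicle, azacitidine (AZA) or both drugs (AG120_AZA), with a labelled time of 5 days. AZA is a hypomethylating nucleoside. Progenitors were sorted from each mouse as cKit+ and CD11b-, and their polyadenylated RNA was sequenced from the 3′ end with the QuantSeq kit. The labels spell out neither the genotype of I1DN nor the drug doses, and they name no marker that would separate leukaemic from host cells in the sort. Nor is it stated that the libraries came from separate mice, and the p-values below therefore measure the spread between libraries.

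Mutant IDH1 converts 2-oxoglutarate to D-2-hydroxyglutarate, a metabolite that inhibits dioxygenases such as the TET enzymes, which oxidise methylated cytosine. In myeloid leukaemia this mutation is known to accompany a block in differentiation, and inhibitors of the mutant enzyme are known to release it in some patients. The genes of basophil, eosinophil and red-cell development, named first below, depend in normal marrow on transcription factors of the GATA family, while IRF8 is a factor of monocyte and dendritic-cell development.

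Levels are given as the deposited log2 CPM (reads counted for a gene, scaled to a fixed library total) in each library, and a difference is the AG120 mean minus the Vehicle mean on that log2 scale, with its standard error (SE). A gene was called at an adjusted p below 0.05 in limma, with the spread pooled over all 8 libraries. Of the 12294 genes, 71 were called (0.578%), 44 of them higher with AG120 (0.358%) and 27 lower (0.22%). In all 71 the AG120 libraries did not overlap the Vehicle libraries. Groups of 2 are often separate: both AG120 libraries lay above both Vehicle libraries in 23.8% of all genes and below them in 22.8%. The called higher genes had a median log2 difference of 3.38 and the called lower genes one of -1.75, against 0.00 over all genes, of which 50.2% had a difference above 0. At an unadjusted p below 0.05 stood 1609 genes (13.1%). The count of calls depended on single libraries. Without Vehicle replicate 1 it was 8, without AG120 replicate 1 it was 14, without AG120 replicate 2 it was 22 and without AZA replicate 2 it was 44, while without Vehicle replicate 2 it was 103. When each of the 8 libraries was left out in turn, 6 genes were called every time: Mt2, Klf1, Irf8 and the basophil genes Mcpt8, Ms4a2 and Prss34.

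**Figure D1:**
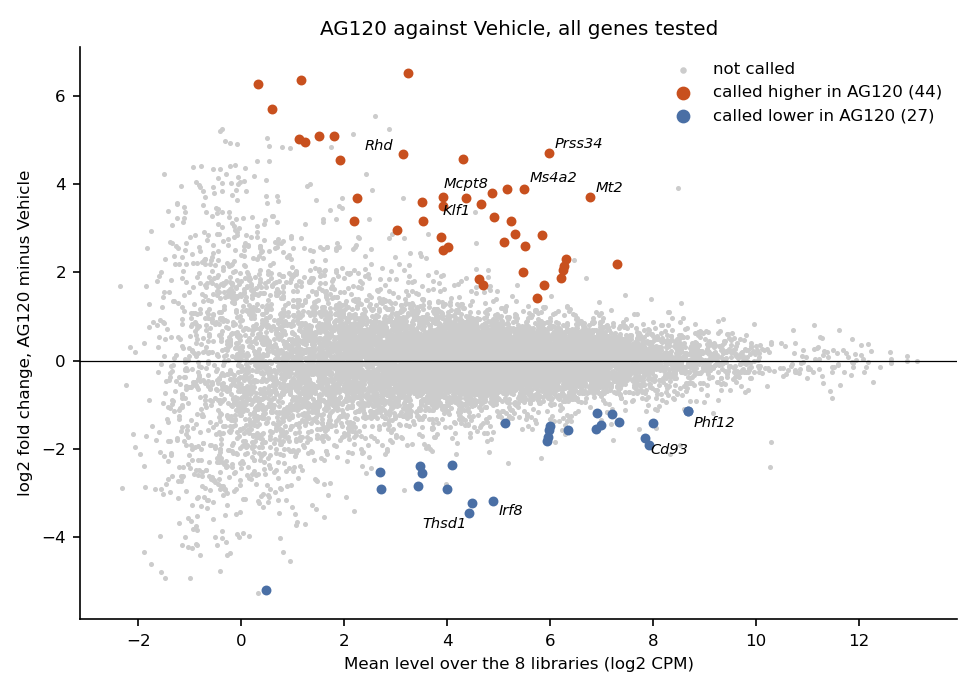
Each point is 1 of the 12294 genes, by its mean log2 CPM over the 8 libraries (x axis) and its log2 fold change, AG120 minus Vehicle (y axis). The 44 genes called higher in AG120 are orange and the 27 called lower are blue, with 10 of them named; 10 of the called higher genes and 3 of the called lower genes have a mean below 3.

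Among the libraries, the AG120 pair correlated at r = 0.936 across genes and the Vehicle pair at r = 0.921. Within both pairs some genes differed widely between the libraries. Elane, neutrophil elastase, was at 8.49 and 10.92 in the AG120 libraries and at 7.28 and 9.53 in the Vehicle libraries. Replicate 2 was thus the higher in both groups. The platelet chemokine Pf4 was at 9.42 and 7.15 with AG120, and at 10.42 and 10.96 with Vehicle. The sort markers were checked: Kit was at 5.15 and 5.84 with AG120 and at 6.31 and 6.59 with Vehicle (difference -0.95 ± 0.37 SE, adjusted p = 0.30), and Itgam, which encodes CD11b, was at 2.50 and 3.76 with AG120 and at 2.1 and 4.34 with Vehicle. Kit transcript was thus present in all 4 libraries, and Itgam was above the lowest listed value in each of them. Markers of B cells, T and NK cells, and stroma were mostly not among the measured symbols (4 of 16, 7 of 21 and 1 of 15 measured), and the summed CPM of the measured T and NK markers was 36.5 to 129 with AG120 and 27.3 to 47.4 with Vehicle.

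The basophil and mast-cell list held 3 of the 6 genes called with each library left out in turn: Prss34, Mcpt8 and Ms4a2. The 5 called members of that list of 13 measured genes rose with AG120: the basophil proteases Prss34 and Mcpt8, Ms4a2 (the beta chain of the high-affinity IgE receptor), Il1rl1 (the receptor of interleukin 33, ST2) and Csrp3 (a LIM-domain protein). Prss34 was at 8.32 and 7.44 in the AG120 libraries, against 3.57 and 2.78 in the Vehicle libraries, a 26.2-fold difference (log2 4.71 ± 0.55 SE, adjusted p = 0.00673). Ms4a2 was at 7.54 and 6.85 with AG120, against 3.66 and 2.94 with Vehicle (3.89 ± 0.34 SE, adjusted p = 0.00109). Mcpt8 was at 6.66 and 6.13 with AG120, against 2.49 and 2.68 with Vehicle (3.81 ± 0.33 SE, adjusted p = 0.00109). For each of these 3 genes the lower AG120 library stood more than 3 log2 units above the higher Vehicle library. In a bulk measurement, more cells of a type and more RNA per cell cannot be told apart. Il1rl1 was at 5.67 and 4.83 with AG120, against 1.49 and 1.80 with Vehicle (3.61 ± 0.60 SE, adjusted p = 0.0288), and Csrp3 differed by 2.97 ± 0.52 SE (adjusted p = 0.0358).

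The other basophil and mast-cell genes were not called and differed less. Cpa3, mast-cell carboxypeptidase, was at 10.56 and 9.79 with AG120 and at 10.02 and 8.65 with Vehicle, so that its groups overlapped. Gata2, a transcription factor of progenitors, mast cells and basophils, was at 8.25 and 7.49 with AG120 and at 8.03 and 7.18 with Vehicle. Hdc, which makes histamine, was at 7.81 and 8.22 with AG120 and at 5.78 and 7.29 with Vehicle (1.48 ± 0.39 SE, adjusted p = 0.139). Fcer1a, the alpha chain of the IgE receptor, lay near the lowest values, at -0.09 and -0.68 with AG120 and at -2.74, the lowest listed, and -0.17 with Vehicle. In 9 of the 13 genes both AG120 libraries lay above both Vehicle libraries and in 0 below, against 23.8% and 22.8% of all genes. The list's median difference was 1.69, its median level 6.66 and 5.92 in the AG120 libraries and 3.66 and 2.78 in the Vehicle libraries, and its summed CPM 1876 to 2942 with AG120 and 777 to 1519 with Vehicle. The members of a list share cells and libraries, so these counts are descriptions.

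Eosinophil granule genes were higher in the same libraries. The 3 called members of the 11 measured were Epx (eosinophil peroxidase), Prg3 (a homologue of major basic protein) and Alox15 (a lipoxygenase of eosinophils). Epx was at 5.80 and 7.17 with AG120, against 0.56 and 3.28 with Vehicle (4.56 ± 0.78 SE, adjusted p = 0.0295). Prg3 was at 5.93 and 7.12 with AG120, against 1.73 and 3.93 with Vehicle (3.70 ± 0.67 SE, adjusted p = 0.0384). In both genes AG120 replicate 2 was the higher of its pair, the reverse of the basophil proteases, and Vehicle replicate 1 was the lowest library. Prg2, which encodes major basic protein, was at 10.00 and 11.02 with AG120 and at 4.78 and 8.42 with Vehicle, and was not called (3.91 ± 0.88 SE, adjusted p = 0.0851). Alox15 was at 2.69 and 2.97 with AG120, while Vehicle replicate 1 was listed at its lowest value, -2.74, and Vehicle replicate 2 at -1.49, so that its fitted difference depends on the offset of the log transformation. The ribonuclease genes Ear1 and Ear2 were listed at the lowest value in both Vehicle libraries and lay between -0.27 and 2.32 with AG120. The list's summed CPM was 1239 to 2460 with AG120 and 111 to 437 with Vehicle.

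Prss34, Ms4a2 and Mcpt8 kept their calls whichever library was left out, with differences of 4.27 to 5.15, 3.53 to 4.25 and 3.54 to 4.07. With a robust prior in the fit, however, Prss34 was no longer called (adjusted p = 0.0636), and with no trend in the prior no gene was. The other 5 calls, Il1rl1, Csrp3, Epx, Prg3 and Alox15, ended without AG120 replicate 1 (adjusted p 0.0908 to 0.291) and without AG120 replicate 2 (0.0833 to 0.217). Without Vehicle replicate 1, 4 of them ended (0.0791 to 0.169, all but Csrp3), and without Vehicle replicate 2 those of Csrp3 and Il1rl1 did (0.0513 to 0.0752). Omitting AZA replicate 1 or AZA replicate 2, libraries that enter only the pooled spread, ended 4 each (0.0533 to 0.0737 and 0.0548 to 0.0776, all but Alox15). Csrp3 also ended without AG120_AZA replicate 1 (0.0605), and Csrp3 and Prg3 without AG120_AZA replicate 2 (0.051 to 0.062).

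**Figure D2:**
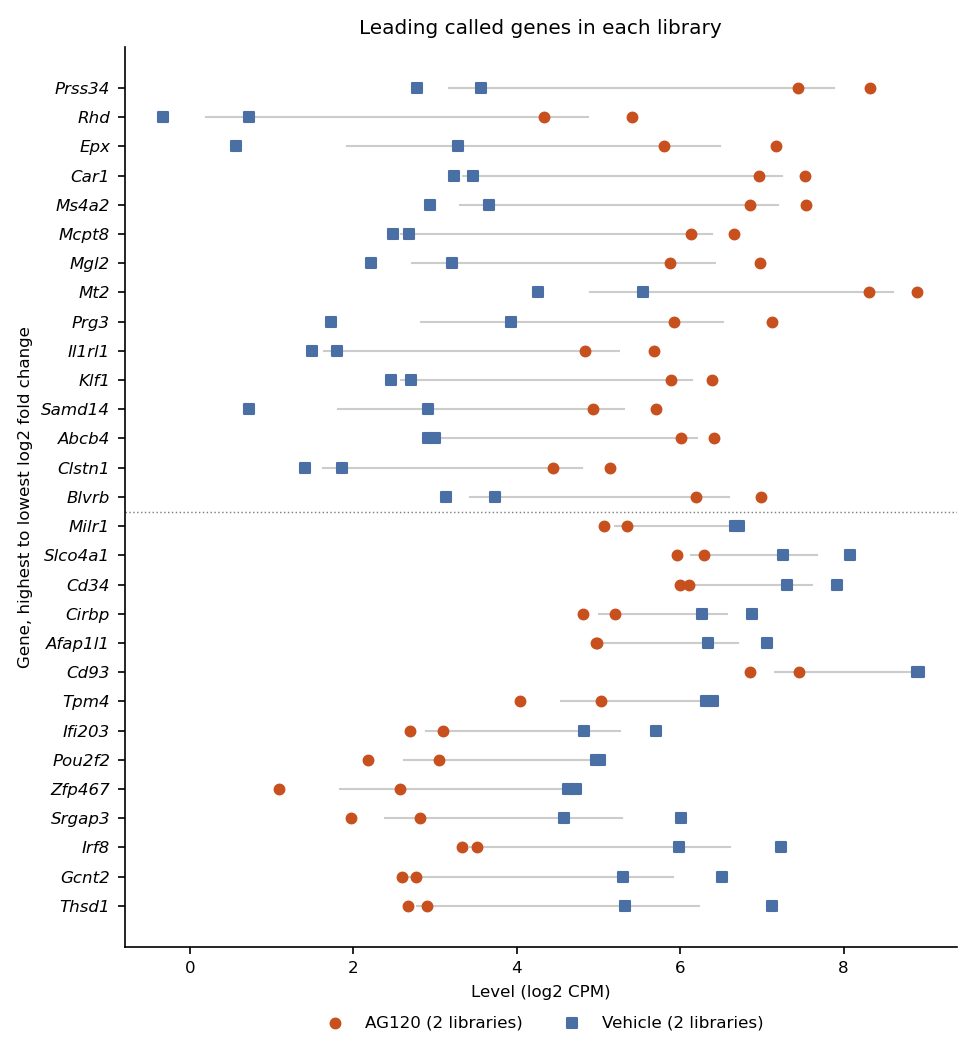
Levels (log2 CPM, x axis) in the 2 AG120 libraries (orange circles) and the 2 Vehicle libraries (blue squares) for the 15 called, named genes with a mean level of at least 3 that had the highest log2 fold change and for 14 of the 15 with the lowest, with a grey line between the group means. Prss34 at the top lies at 8.32 and 7.44 with AG120 and at 3.57 and 2.78 with Vehicle, and in none of the 29 genes do the groups overlap.

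The stretch upstream of the start site is shown for 4 genes picked from those with large differences, not the top 4 by rank. Epx and Car1 differed by more than Mcpt8 but are not shown, and neither is among the matches named below. Basophil, eosinophil and red-cell genes are known as targets of GATA factors, of whose motif AGATAA is a common form. The windows hold the 250 bases before the RefSeq start of each gene, read from RefSeq on build GRCm38.p6 and printed in the gene's own direction. Capitals mark AGATAA, or TTATCT where the motif lies on the other strand. Prss34 (chr17:25298144-25298393, + strand) had 1 match, beginning 31 bases before the start. Ms4a2 (chr19:11623720-11623969, - strand) had 3, beginning 224, 37 and 11 bases before it. Rhd (chr4:134864286-134864535, + strand), a red-cell gene described below, had 1 at 43 bases, and Mcpt8 (chr14:56085198-56085447, - strand) had none. In the GENCODE annotation Mcpt8 starts at 56085273, so part of its window lies inside the gene as annotated there.
Prss34: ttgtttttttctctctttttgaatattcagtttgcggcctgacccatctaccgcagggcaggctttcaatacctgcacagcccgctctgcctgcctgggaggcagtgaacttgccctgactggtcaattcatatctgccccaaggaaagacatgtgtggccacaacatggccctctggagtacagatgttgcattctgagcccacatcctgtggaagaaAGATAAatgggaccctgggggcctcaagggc
Ms4a2: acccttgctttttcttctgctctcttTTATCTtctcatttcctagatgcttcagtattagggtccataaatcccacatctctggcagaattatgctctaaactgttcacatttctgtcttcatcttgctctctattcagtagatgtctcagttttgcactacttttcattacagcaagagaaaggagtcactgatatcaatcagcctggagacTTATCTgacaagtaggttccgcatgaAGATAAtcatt
Rhd: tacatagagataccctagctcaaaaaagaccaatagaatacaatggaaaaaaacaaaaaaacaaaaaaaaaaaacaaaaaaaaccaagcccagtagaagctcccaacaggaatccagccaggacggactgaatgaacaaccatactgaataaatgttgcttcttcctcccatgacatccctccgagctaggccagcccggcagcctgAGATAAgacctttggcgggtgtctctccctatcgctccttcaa
Mcpt8: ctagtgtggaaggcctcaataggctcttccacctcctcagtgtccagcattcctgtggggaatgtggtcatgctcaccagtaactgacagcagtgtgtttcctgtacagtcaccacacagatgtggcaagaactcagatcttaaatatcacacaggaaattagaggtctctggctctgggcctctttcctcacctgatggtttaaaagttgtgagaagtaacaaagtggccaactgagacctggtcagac
Of the 44 genes called higher, 36 had a RefSeq window, and 8 of these (22.2%) held the motif, the only one searched, on either strand: Prss34, Ms4a2, Il1rl1, Rhd, Steap3, Cyp4f18, Ell2 and Mylk3. Of the 27 called lower, 21 had a window and 2 (9.52%) held it, Il6ra and Plcg2. Over all measured genes with a window the share was 7.54% (697 of 9244), and over all RefSeq windows 9.99% (3281 of 32851). In the basophil and mast-cell list it was 53.8% (7 of 13). Prss34, Ms4a2 and Il1rl1 of these were called, while Cpa3, Fcer1a, Cd200r3 and Slc18a2 were not. The other lists had fewer matches. In the eosinophil list 2 of 9 windows held the motif, those of Ccr3 and Il5ra, neither of which was called. In the list of erythroid regulators, surface and membrane genes 4 of 16 did, those of Epor, Icam4, Rhd and Tal1, of which Rhd alone was called. A match describes the letters of the window. Binding was not measured here, and reads from the 3′ end do not show which start site was used.

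Some red-cell genes were higher too, while the adult globins had lower means with AG120 and were not called. Of 26 measured regulators, surface and membrane genes of the erythroid lineage, 6 rose: Klf1, the erythroid Krüppel-like transcription factor; Rhd, the Rh blood-group protein; Car1, a red-cell carbonic anhydrase; Blvrb, a biliverdin reductase; Aqp1, a water channel; and Samd14, a sterile-alpha-motif protein. Klf1 was at 6.39 and 5.89 in the AG120 libraries, against 2.70 and 2.47 in the Vehicle libraries, an 11.8-fold difference (log2 3.56 ± 0.36 SE, adjusted p = 0.00362). Rhd was at 5.41 and 4.33 with AG120, against -0.34 and 0.72 with Vehicle (4.68 ± 0.61 SE, adjusted p = 0.00836). Car1 was at 7.53 and 6.97 with AG120, against 3.46 and 3.23 with Vehicle (3.90 ± 0.63 SE, adjusted p = 0.0258). In these 3 genes AG120 replicate 1 was the highest of the 4 libraries, and the difference within each pair was small beside that between groups. Blvrb, Aqp1 and Samd14 differed by 3.16 ± 0.45, 2.86 ± 0.39 and 3.50 ± 0.66 SE (adjusted p = 0.0148, 0.0118 and 0.0426). In 17 of the 26 genes both AG120 libraries lay above both Vehicle libraries and in 2 below, against 23.8% and 22.8% of all genes. The list's median difference was 1.56. Gata1, the factor upstream of Klf1, was at 8.39 and 7.54 with AG120 and at 7.40 and 6.42 with Vehicle and was not called (1.05 ± 0.35 SE, adjusted p = 0.229).

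Among 15 measured heme-synthesis and globin genes 2 rose, the heme enzymes Cpox (coproporphyrinogen oxidase) and Alad (aminolevulinate dehydratase). Cpox was at 6.73 and 6.06 with AG120, against 3.95 and 4.84 with Vehicle (2.0 ± 0.34 SE, adjusted p = 0.0295). Alad was at 6.75 and 6.19 with AG120, against 4.97 and 4.54 with Vehicle (1.71 ± 0.31 SE, adjusted p = 0.0384). Fech, ferrochelatase, the last enzyme of the pathway, was at 5.95 and 5.03 with AG120 and at 3.92 and 3.88 with Vehicle and was not called (1.59 ± 0.33 SE, adjusted p = 0.0639). The globins lay the other way. Hbb-bs, adult beta globin, was at 9.64 and 7.39 with AG120 and at 10.62 and 10.10 with Vehicle (-1.84 ± 0.58 SE, adjusted p = 0.209). Hba-a1, alpha globin, was at 5.82 and 3.85 with AG120 and at 6.96 and 6.04 with Vehicle (-1.67 ± 0.58 SE, adjusted p = 0.253). Neither globin passed the test, and in both it was AG120 replicate 2 that lay far below the other 3 libraries. Hbb-bs and Hbb-bt are near-identical copies, so their separate values are uncertain.

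Klf1 kept its call in all 8 omissions, with differences of 3.30 to 3.81. Without Vehicle replicate 1, and equally without AG120 replicate 1, Klf1 was the only one of these 8 red-cell and heme genes still called (adjusted p of the other 7, Rhd, Car1, Blvrb, Aqp1, Samd14, Cpox and Alad, 0.0584 to 0.176 and 0.107 to 0.302). Car1 and Alad ended without Vehicle replicate 2 (0.0654 to 0.12), and these 2 with Cpox and Samd14 without AG120 replicate 2 (0.0644 to 0.119). Cpox, Samd14 and Alad ended without AZA replicate 1 (0.0552 to 0.0736) or AZA replicate 2 (0.0593 to 0.0776), Samd14 without AG120_AZA replicate 1 (0.0605), and Samd14 and Alad without AG120_AZA replicate 2 (0.051 to 0.0644).

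Megakaryocyte and platelet genes, which share a progenitor with red cells, were not called in either direction (0 of 19 measured). At an unadjusted p below 0.05 stood 5 of them (26.3%), against 13.1% of all genes. The median was -0.85, with -1.39 without AG120 replicate 1 and -0.34 without AG120 replicate 2. In 7 of the 19 both AG120 libraries lay below both Vehicle libraries and in 0 above, against 22.8% and 23.8% of all genes. Pf4 had a difference of -2.41 ± 0.53 SE (adjusted p = 0.0836). As with the globins, AG120 replicate 2 was the lowest library. The difference of Pf4 passed the test without AG120 replicate 1, as did those of Hbb-bs and Hbb-bt.

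**Figure D3:**
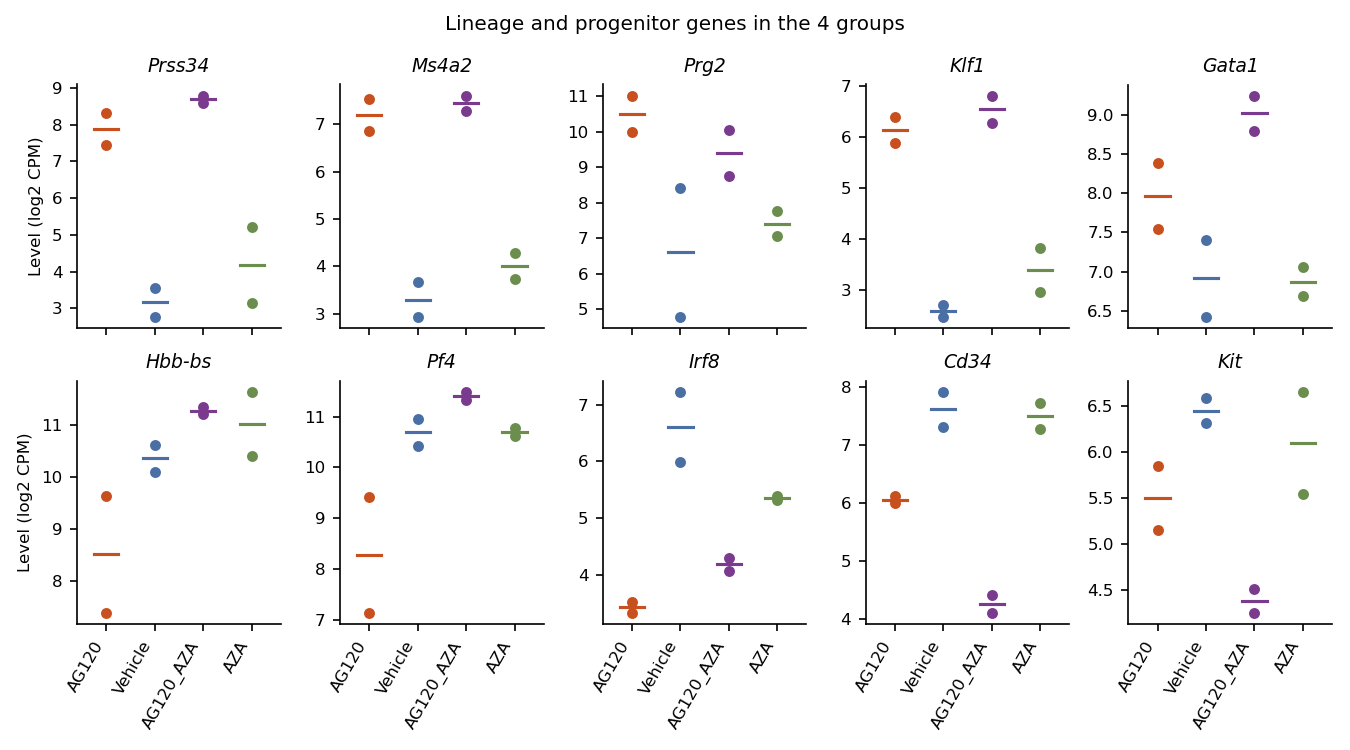
Levels (log2 CPM, y axis, a separate range in each panel that does not begin at 0) of 10 lineage and progenitor genes in the 2 libraries of each group, with bars at the group means; groups run from AG120 and Vehicle to AG120_AZA and AZA. Klf1 lies at 6.39 and 5.89 with AG120 against 2.70 and 2.47 with Vehicle, while Pf4 and Hbb-bs show 1 AG120 library far below the other.

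Genes of metal binding, iron handling and redox defence had 2 called members of 28, both higher. Mt2, a metallothionein that binds zinc and copper, was at 8.90 and 8.32 with AG120, against 4.25 and 5.54 with Vehicle, a 13.1-fold difference (log2 3.71 ± 0.41 SE, adjusted p = 0.00551). Gclm, a subunit of the enzyme that starts glutathione synthesis, was at 6.34 and 6.03 with AG120, against 4.80 and 4.72 with Vehicle (1.43 ± 0.23 SE, adjusted p = 0.027). Steap3, a ferrireductase of iron uptake that was outside the list, also rose (2.85 ± 0.52 SE, adjusted p = 0.0384). Slc40a1, the iron exporter ferroportin, was at 3.84 and 3.23 with AG120 and at 1.10 and 0.24 with Vehicle, and just missed the test (2.87 ± 0.56 SE, adjusted p = 0.0524). In 15 of the 28 genes both AG120 libraries lay above both Vehicle libraries and in 2 below, against 23.8% and 22.8% of all genes. The list median was 0.49. Mt2 overlaps the gene model Gm45774 and Gclm overlaps Gm17494 on the opposite strand (r = 0.901 and 0.836 over the 8 libraries), and the counting strand was not given in the sources used here, so reads of the partners cannot be told apart. Mt2 kept its call in all 8 omissions. Gclm and Steap3 lost theirs without Vehicle replicate 1 (adjusted p 0.11 to 0.201), AG120 replicate 1 (0.239 to 0.253) or AG120 replicate 2 (0.0908 to 0.11); Gclm did so without Vehicle replicate 2 (0.0618), and Steap3 without AG120_AZA replicate 1 (0.0642) or 2 (0.0676).

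The genes that fell with AG120 included markers of early progenitors and of the monocyte path. Irf8 was at 3.33 and 3.52 in the AG120 libraries, against 5.99 and 7.23 in the Vehicle libraries (log2 -3.19 ± 0.37 SE, adjusted p = 0.00673), so that its level was 9.11-fold higher in Vehicle. Cd93, a surface glycoprotein of early progenitors, was at 6.86 and 7.46 with AG120, against 8.90 and 8.93 with Vehicle (-1.75 ± 0.22 SE, adjusted p = 0.00836). Cd34, the stem and progenitor sialomucin, was at 6.0 and 6.11 with AG120, against 7.91 and 7.31 with Vehicle (-1.56 ± 0.27 SE, adjusted p = 0.0295). For these 3 genes the difference within each pair was smaller than that between the groups, and it was widest for Irf8 in Vehicle. Pou2f2, the transcription factor OCT2, was at 2.18 and 3.05 with AG120, against 4.97 and 5.02 with Vehicle (-2.38 ± 0.41 SE, adjusted p = 0.0295). Il6ra, the interleukin 6 receptor chain, fell by 2.52 ± 0.47 SE (adjusted p = 0.0409), and Ifi203, an interferon-inducible gene, fell by 2.37 ± 0.42 SE (adjusted p = 0.0348). Plcg2, a phospholipase C of immune receptor signalling, fell by 1.46 ± 0.21 SE (adjusted p = 0.0157). Milr1, an inhibitory receptor known from mast cells, fell by 1.49 ± 0.23 SE (adjusted p = 0.0215), the direction opposite to the basophil and mast-cell genes that were called. Lst1 and Tmem176b, both leukocyte transcripts, fell by 1.19 ± 0.23 and 1.42 ± 0.24 SE (adjusted p = 0.0474 and 0.0295). Tmem176b overlaps its neighbour Tmem176a on the opposite strand, and Ifi203 overlaps Mndal (r = 0.972 and 0.89 over the libraries), so these values may hold reads of both. Pou2f2 overlaps the gene model D930028M14Rik on the opposite strand, which lay the other way (log2 difference 3.94, r = -0.884 over the libraries).

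Of 23 measured stem and early-progenitor genes, 2 fell (Cd34 and Cd93) and 0 rose. In 12 both AG120 libraries lay below both Vehicle libraries and in 2 above, against 22.8% and 23.8% of all genes. The median was -0.95, and -0.53 without AG120 replicate 2. Meis1, a homeobox cofactor of stem cells, was at 6.74 and 6.07 with AG120 and at 8.37 and 7.30 with Vehicle (-1.43 ± 0.33 SE, adjusted p = 0.09). Mef2c was at 4.11 and 3.75 with AG120 and at 5.64 and 5.22 with Vehicle (-1.50 ± 0.30 SE, adjusted p = 0.0548). Angpt1, a niche ligand of stem cells, was at 5.45 and 4.55 with AG120 and at 7.04 and 6.02 with Vehicle. None of these 3 passed the test, although their groups did not overlap.

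Of 19 measured monocyte and macrophage genes, Irf8 alone was called, and the median was -1.18, with -2.22 without Vehicle replicate 1 and -0.29 without Vehicle replicate 2. In 8 of the 19 both AG120 libraries lay below both Vehicle libraries and in 2 above, against 22.8% and 23.8% of all genes. Ms4a6c was at 5.57 and 5.79 with AG120 and at 6.58 and 7.53 with Vehicle (-1.37 ± 0.31 SE, adjusted p = 0.0868), and Lyz2, lysozyme, was at 7.82 and 7.15 with AG120 and at 8.47 and 10.29 with Vehicle (-1.90 ± 0.51 SE, adjusted p = 0.143). The 2 Vehicle libraries were far apart on this list, with medians of 4.52 and 5.56, against 3.69 and 3.76 with AG120. Among 17 myeloid transcription factors Irf8 and Pou2f2 fell and 0 rose, and Cebpa was at 6.62 and 6.42 with AG120 and at 5.58 and 5.84 with Vehicle (0.80 ± 0.26 SE, adjusted p = 0.218). Neutrophil maturation genes (22 measured) and primary granule genes (13 measured) had 0 calls each and medians of -0.18 and 0.17, and in both lists the median level differed more between the libraries of a pair than between the groups. Dendritic-cell and MHC class II genes had 0 calls of 13 measured.

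Of 29 cytokine receptors, Il1rl1 rose and Il6ra fell, and the median was -0.46 (-0.20 without AG120 replicate 1). Il4ra, the interleukin 4 receptor chain, was at 3.80 and 4.36 with AG120 and at 5.42 and 5.90 with Vehicle (-1.58 ± 0.35 SE, adjusted p = 0.0836), without overlap. Ifi203 was the 1 called gene of 36 interferon-stimulated genes (median -0.35, and -0.15 without Vehicle replicate 1). In 14 of the 36 both AG120 libraries lay below both Vehicle libraries and in 4 above, against 22.8% and 23.8% of all genes. Ifitm1, an interferon-induced transmembrane gene outside this list, rose (2.20 ± 0.38 SE, adjusted p = 0.0295). Among 25 homing and adhesion genes the median was -0.11; Itgal, an integrin of leukocyte adhesion, was at 7.20 and 6.94 with AG120 and at 7.89 and 7.66 with Vehicle (-0.70 ± 0.21 SE, adjusted p = 0.183).

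Irf8 kept its call in all 8 omissions, with differences of -3.81 to -2.56. The other 9 called genes of this group (Pou2f2, Cd93, Cd34, Il6ra, Ifi203, Plcg2, Lst1, Milr1 and Tmem176b) all ended without Vehicle replicate 1 (adjusted p 0.0584 to 0.224) and without AG120 replicate 1 (0.0892 to 0.314). Without AG120 replicate 2, Cd93 and Plcg2 of these 9 stayed and 7 ended (0.0639 to 0.158). Il6ra, Lst1, Milr1 and Pou2f2 ended without Vehicle replicate 2 (0.0524 to 0.113). Il6ra, Ifi203 and Pou2f2 ended without AZA replicate 1 (0.0541 to 0.0758), and these 3 with Cd34 and Lst1 without AZA replicate 2 (0.0501 to 0.0776). Lst1 ended without AG120_AZA replicate 1 (0.0675), and Lst1 and Il6ra without AG120_AZA replicate 2 (0.051 to 0.0713).

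The remaining called genes belonged to none of the lists, apart from Cox6b2. Gcnt2, a glycosyltransferase that forms the I blood-group antigen, was at 2.76 and 2.59 with AG120, against 6.52 and 5.30 with Vehicle (-3.23 ± 0.39 SE, adjusted p = 0.00673), and kept its call in 7 of the 8 omissions. Thsd1, a thrombospondin-repeat membrane protein, was at 2.90 and 2.66 with AG120, against 7.13 and 5.33 with Vehicle (-3.44 ± 0.49 SE, adjusted p = 0.0148). Cirbp, the cold-inducible RNA-binding protein, was at 5.20 and 4.81 with AG120, against 6.88 and 6.26 with Vehicle (-1.57 ± 0.28 SE, adjusted p = 0.0384). Srgap3 (a GTPase-activating protein), Tpm4 (a tropomyosin) and Afap1l1 (an actin-filament associated protein) had differences of -2.90 ± 0.52, -1.82 ± 0.34 and -1.73 ± 0.28 SE, at adjusted p = 0.0383, 0.04 and 0.0258. Zfp467 (a zinc-finger protein), Slco4a1 (an organic anion transporter), Sh2d3c (a signalling adaptor), Dgkd (a diacylglycerol kinase) and Anxa5 (annexin A5) fell by 2.84, 1.54, 1.41, 1.39 and 1.20 on the log2 scale. Phf12 and Dhrs13os, at 8.14 and 8.13 in AG120 replicate 1, overlap on opposite strands and had near-identical values in every library (r = 1.00), so their -1.15 and -1.14 are 1 measurement.

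Upward, Abcb4, a phospholipid exporter, was at 6.41 and 6.01 with AG120, against 2.91 and 2.99 with Vehicle (3.26 ± 0.40 SE, adjusted p = 0.0077). Clstn1, calsyntenin, was at 5.15 and 4.45 with AG120, against 1.85 and 1.41 with Vehicle (3.17 ± 0.44 SE, adjusted p = 0.0124). Mgl2, a galactose-binding lectin of macrophages and dendritic cells, was at 5.87 and 6.98 with AG120, against 2.21 and 3.21 with Vehicle (3.71 ± 0.63 SE, adjusted p = 0.0295), with AG120 replicate 2 the higher of its pair, as for Epx. Cox6b2, a testis-type subunit of cytochrome c oxidase, was at 6.66 and 6.63 with AG120, against 4.23 and 3.87 with Vehicle (2.60 ± 0.33 SE, adjusted p = 0.00836). Cyp4f18, a cytochrome P450, rose by 2.70 ± 0.35 SE (adjusted p = 0.00836). Parm1, Dmwd, Mylk3, Glipr2, Ifitm1, Ttll12, Septin8, C1qtnf12, Stx3 and Ell2 rose by 1.72 to 2.81 on the log2 scale. Gm17590, Fat3 and Ptprn were listed at the lowest value in both Vehicle libraries and between 2.29 and 3.71 with AG120, and no fold is given for them. Vehicle replicate 1 was at the lowest value, -2.74, also for Gm15915, Plxna1, Cited4, Spire1 and Gm42776, whose fitted differences likewise depend on the offset. Rnase12 (3.65 and 3.46 with AG120, -0.34 and 0.08 with Vehicle) and Nxpe2 (3.63 and 2.70 with AG120, -0.09 and 0.08 with Vehicle) were called at low levels, as were Gm8113, Gm42674 and Epb41l1 among the lower genes.

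Leaving out Vehicle replicate 1 ended the calls of the 15 higher genes from Abcb4 to Ell2 (adjusted p 0.0536 to 0.176) and of the 13 lower genes from Gcnt2 to Dhrs13os (0.0536 to 0.216). AG120 replicate 1 ended the 15 higher (0.0892 to 0.319) and 11 of the lower, all but Gcnt2 and Tpm4 (0.0892 to 0.284). AG120 replicate 2 ended 10 of the higher, all but Abcb4, Clstn1, Cyp4f18, C1qtnf12 and Septin8 (0.0547 to 0.201), and 11 of the lower, all but Gcnt2 and Zfp467 (0.0832 to 0.215). Vehicle replicate 2 ended C1qtnf12, Ell2, Mylk3, Parm1, Septin8, Stx3 and Ttll12 (0.0509 to 0.131) and Anxa5, Dgkd, Dhrs13os, Phf12, Sh2d3c, Tpm4 and Zfp467 (0.0618 to 0.104). AZA replicates 1 and 2 each ended Ell2, Ifitm1, Mgl2 and Parm1, with Stx3 for replicate 2 (0.0552 to 0.0619 and 0.0501 to 0.0609), and each ended Cirbp, Sh2d3c, Slco4a1, Srgap3, Tpm4 and Zfp467 (0.0619 to 0.0796 and 0.0609 to 0.084). AG120_AZA replicates 1 and 2 each ended Septin8 and Stx3, with Parm1 for replicate 2 (0.0517 to 0.0691 and 0.051 to 0.0733), and each ended Dhrs13os, Phf12, Sh2d3c and Slco4a1, with Cirbp and Zfp467 for replicate 2 (0.0517 to 0.0577 and 0.051 to 0.0594). The 13 genes at low or lowest values, from Gm17590 to Epb41l1, all ended without Vehicle replicate 1 (0.0584 to 0.266), AG120 replicate 1 (0.127 to 0.333) or AG120 replicate 2 (0.0833 to 0.209). Of these 13, Epb41l1, Fat3 and Gm42674 ended without Vehicle replicate 2 (0.0509 to 0.111), while AZA replicate 1 ended 5 and AZA replicate 2 ended 8 (0.0526 to 0.0772 and 0.0501 to 0.0862), and the AG120_AZA libraries ended 7 and 10 (0.0503 to 0.0815 and 0.051 to 0.0841).

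Growth and cell-cycle genes were not called. Of 34 MYC targets and ribosome-biogenesis genes, 0 passed in limma, while 17 stood at an unadjusted p below 0.05, all higher, against 13.1% of all genes. In 27 both AG120 libraries lay above both Vehicle libraries and in 0 below, against 23.8% and 22.8% of all genes. The median difference was 0.57, with median levels of 7.30 and 7.07 in the AG120 libraries and 6.57 and 6.58 in the Vehicle libraries. The summed CPM was 12240 to 12700 with AG120 and 8085 to 8785 with Vehicle. Npm1, the nucleolar protein nucleophosmin, was at 9.78 and 9.71 with AG120 and at 9.07 and 9.20 with Vehicle (0.61 ± 0.17 SE, adjusted p = 0.167). Dkc1, the pseudouridine synthase dyskerin, was at 6.99 and 7.09 with AG120 and at 6.14 and 6.35 with Vehicle (0.79 ± 0.21 SE, adjusted p = 0.141). The pattern was a small offset carried by many genes. Cytosolic ribosomal protein genes (83 measured) had 0 calls and a median of -0.03, with 5 genes (6.02%) at an unadjusted p below 0.05. Their groups were separate upward in 18 genes (21.7%) and downward in 19 (22.9%), against 23.8% and 22.8% of all genes.

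DNA replication genes (37 measured), mitosis genes (30), cell-cycle entry genes (19) and cell-cycle inhibitors (14) had 0 calls each in limma. Their medians were 0.10, 0.16, -0.05 and 0.01. They had 5, 2, 1 and 3 genes at an unadjusted p below 0.05 (13.5%, 6.67%, 5.26% and 21.4%), against 13.1% of all genes. In the mitosis list both AG120 libraries lay above both Vehicle libraries in 11 genes and below in 1, against 23.8% and 22.8% of all genes. Ccnb1, a mitotic cyclin, was at 7.22 and 6.93 with AG120 and at 6.78 and 6.31 with Vehicle (0.53 ± 0.24 SE, adjusted p = 0.378), and Tyms, thymidylate synthase, was at 6.12 and 6.18 with AG120 and at 5.21 and 5.40 with Vehicle (0.85 ± 0.25 SE, adjusted p = 0.184). Ccnd1, cyclin D1, lay the other way, at 2.95 and 3.30 with AG120 and at 5.23 and 5.00 with Vehicle (-1.99 ± 0.49 SE, adjusted p = 0.109), and passed with a pseudocount of 4 (0.0436) or without AG120_AZA replicate 1 (0.0446) or 2 (0.0430). Cycling of leukaemia stem cells is the question named in the title of the series, and with 2 libraries a group no gene of these lists passed the test when the deposited values of all 8 libraries were fitted without an added pseudocount.

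Mitochondrial genes showed small differences as well. In 49 of 78 mitochondrial ribosomal protein genes both AG120 libraries lay above both Vehicle libraries and in 4 below, against 23.8% and 22.8% of all genes. This list had 0 calls and a median of 0.31 (0.20 without Vehicle replicate 1). Of its genes 16 (20.5%) stood at an unadjusted p below 0.05, against 13.1% of all genes. Mrps24 was at 6.88 and 6.95 with AG120 and at 5.81 and 5.78 with Vehicle (1.12 ± 0.23 SE, adjusted p = 0.0639). The median was 0.21 for complex I (37 measured), 0.08 for complexes II to IV (28), 0.20 for ATP synthase (17) and 0.38 for the mitochondrially encoded genes (11), and Cox6b2 was the 1 call among these. Of 26 ATF4 targets and serine and one-carbon enzymes, 0 passed (median 0.44). An unadjusted p below 0.05 was reached by 6 of the 26 (23.1%), against 13.1% of all genes. Without overlap, 15 of them lay higher and 0 lower, against 23.8% and 22.8% of all genes. Slc7a5, a transporter of large neutral amino acids, was at 5.81 and 5.81 with AG120 and at 3.65 and 4.61 with Vehicle (1.68 ± 0.37 SE, adjusted p = 0.0848). Medians of glycolysis and HIF targets (23 measured), cholesterol synthesis (23) and p53 targets (23) were 0.23, 0.14 and 0.12, with 0 calls. Immediate-early and heat-shock genes (22 measured) had 0 calls and medians of 6.19 and 4.89 in the AG120 libraries and 5.83 and 4.91 in the Vehicle libraries, so this list, often read as a sign of handling during a sort, split both pairs alike. Its part in the other differences was not tested.

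**Figure D4:**
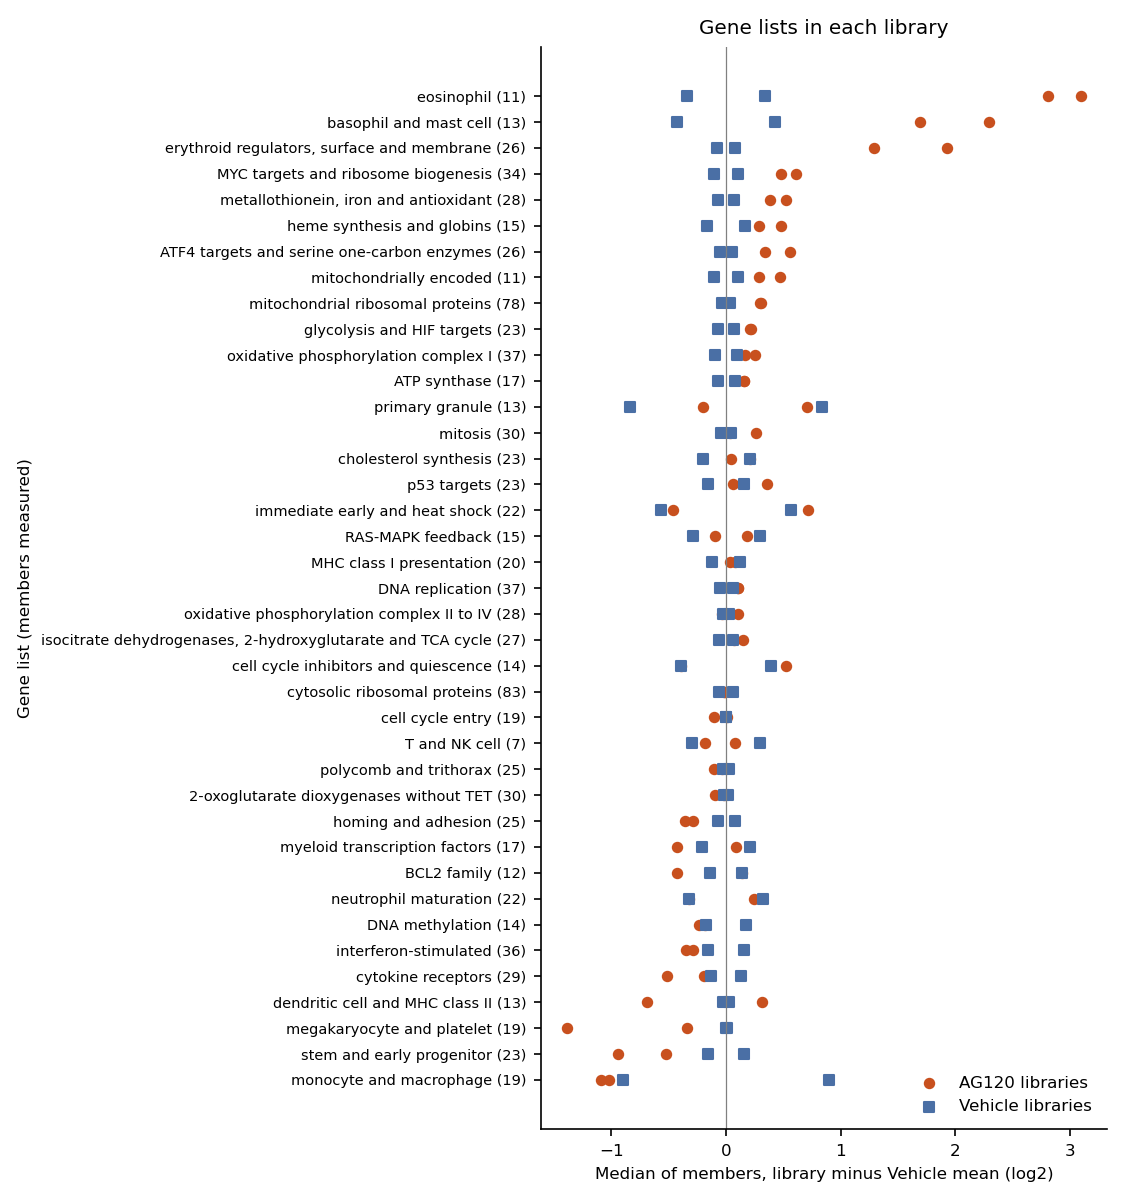
Median over the measured members of each gene list of the library's level minus the Vehicle mean (log2, x axis), for the 2 AG120 libraries (orange circles) and the 2 Vehicle libraries (blue squares); the number of members is in brackets. The eosinophil, basophil and erythroid lists lie farthest to the right, the MYC list (median difference 0.57) shows 2 tight pairs, and the monocyte list is spread widely between the Vehicle libraries.

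Transcripts of the enzymes nearest to the drug and to its metabolite were not called. Idh1 was at 8.62 and 8.25 with AG120 and at 7.58 and 8.32 with Vehicle (0.48 ± 0.42 SE, adjusted p = 0.679), and its 3′ reads do not separate the mutant from the normal transcript. Idh2, the mitochondrial enzyme, was at 8.65 and 8.88 with AG120 and at 9.31 and 9.24 with Vehicle (-0.51 ± 0.19 SE, adjusted p = 0.299). The NAD-dependent subunits Idh3a, Idh3b and Idh3g had differences of 0.31, -0.08 and 0.02. D2hgdh, the dehydrogenase that clears D-2-hydroxyglutarate, had a difference of -0.23 ± 0.40 SE. The sign of the difference of Idh3b, Idh3g and D2hgdh turned when single libraries were left out. Adhfe1 was not among the measured symbols, and of 27 measured isocitrate dehydrogenase, 2-hydroxyglutarate and TCA-cycle genes 0 were called (median 0.04). Of these 27, 2 (7.41%) stood at an unadjusted p below 0.05, against 13.1% of all genes.

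DNA methylation genes had 0 calls of 14 measured, with a median of -0.22. Of the 14, 1 (7.14%), Dnmt3a, stood at an unadjusted p below 0.05, against 13.1% of all genes. The maintenance methyltransferase Dnmt1 was at 7.92 and 8.11 with AG120 and at 7.97 and 7.96 with Vehicle (0.05 ± 0.21 SE), and its cofactor Uhrf1 was at 8.36 and 8.50 with AG120 and at 8.62 and 8.76 with Vehicle (-0.26 ± 0.20 SE). The de novo methyltransferases Dnmt3a and Dnmt3b had differences of -0.84 ± 0.26 and -0.50 ± 0.40 SE (adjusted p = 0.195 and 0.647). The cytosine oxidases Tet1, Tet2 and Tet3 had differences of -0.70 ± 1.24, 0.07 ± 0.52 and -0.64 ± 0.37 SE. Tet3 lay lower without overlap, at 3.21 and 3.65 with AG120 and at 4.20 and 3.93 with Vehicle. Uhrf2, Tdg, Mbd1, Mbd2, Mbd3 and Mbd4 lay between -0.46 and 0.24. Other 2-oxoglutarate dioxygenases (30 measured) and polycomb and trithorax genes (25 measured) had 0 calls and medians of -0.08 and -0.07. These are transcript levels, and neither enzyme activity nor methylation was measured in these libraries. MHC class I, BCL2-family and RAS-MAPK feedback genes had 0 calls as well; Bcl2, the anti-apoptotic founder of its family, was at 4.47 and 4.25 with AG120 and at 5.82 and 5.38 with Vehicle (-1.24 ± 0.30 SE, adjusted p = 0.0997).

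The series holds a further contrast of AG120 that shares no library with the one above, AG120_AZA against AZA, with the spread pooled in the same fit and all libraries normalised together. In it 278 genes were called (2.26%), 130 higher (1.06%) and 148 lower (1.2%), and 2404 (19.6%) stood at an unadjusted p below 0.05. That count was 14 without AZA replicate 1, 30 without AG120_AZA replicate 2, 157 without AZA replicate 2 and 594 without AG120_AZA replicate 1. All 71 genes called for AG120 alone had the same sign there, against 64.4% of all genes and 64.2% of the genes not called for AG120 alone. In 69 of the 71 both AG120_AZA libraries lay beyond both AZA libraries in the same direction, against 4336 of all 12294 genes. Of the 71, 46 were also called in the same direction (33 of the 44 higher and 13 of the 27 lower) and 0 in the opposite one. These 46 are 64.8% of the genes called for AG120 alone and 16.5% of those called with AZA.

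Prss34 differed by 4.51 between AG120_AZA and AZA, Ms4a2 by 3.44, Mcpt8 by 2.26, Klf1 by 3.17 and Mt2 by 3.96, all called. Cd34 had a difference of -3.24 there (adjusted p = 0.00113), and Milr1 one of -2.46 (adjusted p = 0.00148). Irf8 had a difference of -1.17 with AZA (adjusted p = 0.124), Epx one of 1.70 (0.259), Mgl2 one of 1.49 (0.225) and Cirbp one of -0.02 (0.981). The interaction, the difference between the contrasts, was called in 0 genes by limma (0%), with 765 genes (6.22%) at an unadjusted p below 0.05, so for none of these genes was the effect of AG120 shown to differ between backgrounds. That count was 29 without AG120_AZA replicate 1, 2 without Vehicle replicate 2, and 1 without either AG120 replicate. In 52 of the 71 genes the difference was smaller with AZA (median ratio 0.758), but the genes had been chosen by their size in AG120 against Vehicle.

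**Figure D5:**
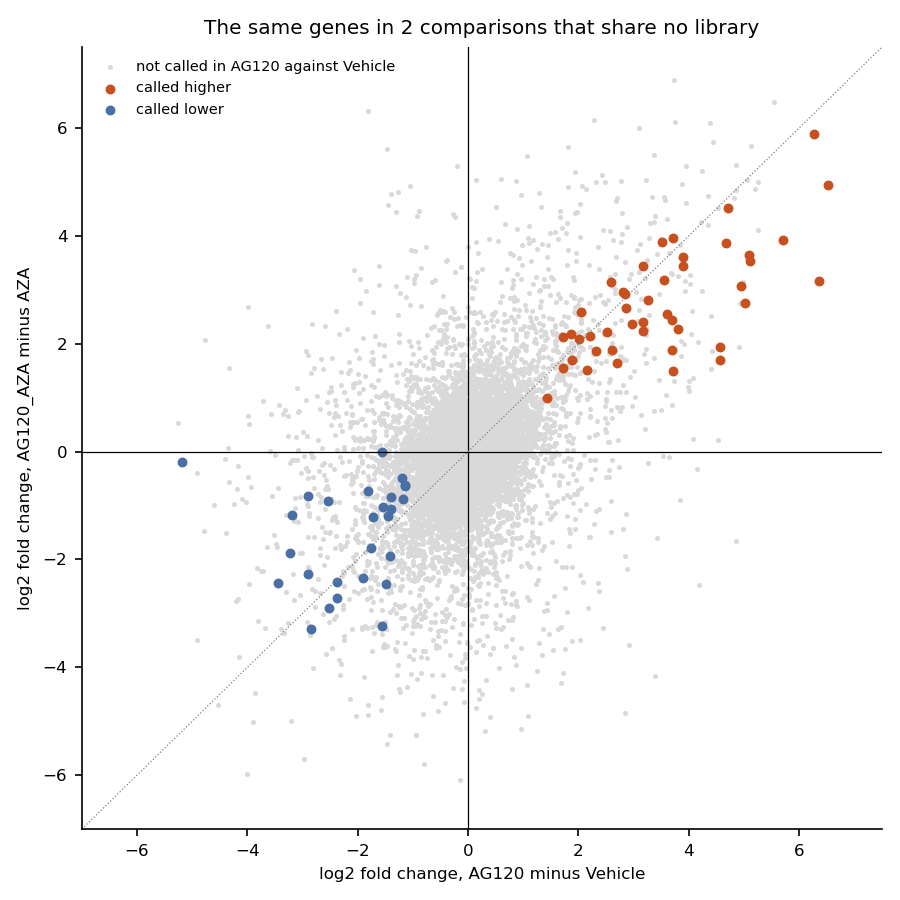
Log2 fold change of AG120 minus Vehicle (x axis) and of AG120_AZA minus AZA (y axis) for all 12294 genes, with the 44 genes called higher (orange) and the 27 called lower (blue) for AG120 alone; the dotted line marks equal differences. All 71 called genes lie on the same side of 0 in both, and 52 of them lie nearer to 0 on the y axis than on the x axis.

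In genome coordinates (build GRCm38, GENCODE annotation, whole gene), Prss34 lies at chr17:25298394-25300165 on the + strand, Ms4a2 at chr19:11615523-11623719 on the - strand and Mcpt8 at chr14:56082166-56085273 on the - strand. Klf1 lies at chr8:84901928-84905291, Mt2 at chr8:94172664-94173568 and Irf8 at chr8:120736358-120756694, all on the + strand. These are the 6 genes that kept their calls in every omission of 1 library, and each is annotated as protein coding. In the least favourable omission Irf8, Prss34, Klf1 and Mt2 were only just within the threshold.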

How the data were processed

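The submitters' processing notes name the build mm10, the aligner HISAT2 2.1.0, edgeR 3.28.1 and limma 3.42.2 (R 3.6.2), Subread 1.6.3 with featureCounts, cutadapt 1.14 and bcl2fastq 2.17.1.14. The annotation and strand setting were not given in the sources used here. The authors deposited 1 table of log2 CPM values for 12294 genes and 8 libraries, 2 per group. Every library there holds the same highest value and sums to about the same CPM, so the read depth of each library is unknown and no counting interval is given. Quantile-like scaling of this kind gives each library the same distribution of values, which would hide a change in total RNA. In the 4 libraries compared, 128 to 376 genes share the library's lowest value.

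Here a group-means model was fitted to all 8 libraries with limma 3.58.1 in R 4.3.3 (empirical Bayes with a trend on mean level, 4 residual and 7.06 prior degrees of freedom), with Benjamini-Hochberg adjustment over all 12294 genes. Values were used as deposited. Each result was recomputed under 10 other settings and after leaving out each of the 8 libraries.

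The genes and the 41 gene lists were chosen with earlier results of these data known. Any called gene could be named. Full values were given for the 15 highest and 15 lowest called genes with a mean of at least 3 and no overlap between groups, passing over gene models without a name, for up to 6 members of each list by unadjusted p, and for all isocitrate dehydrogenase and DNA methylation genes. Symbols matched GENCODE for 12064 genes (98.1%), and promoter windows came from RefSeq, GRCm38.p6. A few genes that these rules name are not reported here.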

Additional observations from a re-analysis of the deposited data

Results flagged for a closer look

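Among the genes and lists described here, 6 results pointed one way in every AG120 library against Vehicle and the other way in every AG120_AZA library against AZA. Ear2, an eosinophil ribonuclease listed at the lowest value in both Vehicle libraries, had a log2 difference of 4.86 without AZA and of -1.67 with it (interaction adjusted p = 0.794 in limma). Pf4 had -2.41 without AZA and 0.71 with it (0.794). Aurkb, a mitotic kinase, had 0.64 without AZA and -0.74 with it (0.794), and Tet3 had -0.64 without AZA and 0.38 with it (0.803). None of these interactions passed the test. The median level of the eosinophil list in a library, averaged over each group, differed by 2.31 without AZA and by -1.13 with it. Its 3 called genes stayed higher with AZA, without overlap, by 1.70 (Epx), 1.88 (Prg3) and 3.07 (Alox15). With AZA, 4 of its 11 measured genes had a difference above 0. The median level of the T and NK cell list (7 measured genes) differed by -0.774 without AZA and by 1.06 with it. For the same list, the median of the gene differences was -0.05 without AZA and 0.98 with it. The differences between the contrasts were not tested for these lists.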

How the results depend on the processing

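Calls for AG120 against Vehicle (71) came to 67 after recentring, 57 and 23 with a mean of at least 3 or 5 required, 88 with a pseudocount of 4, 0 with no trend in the prior, 86 with a robust prior, 39 with observation weights by mean level, 98 with library weights and 18 with only the 4 libraries compared; leaving out 1 library gave 8 to 103. With no trend, where the prior is the same at all levels, no gene passed, against 1609 genes at an unadjusted p below 0.05 in the fit with a trend. For AG120_AZA against AZA (278), they came to 67 with a mean of at least 5, 431 with the pseudocount, 9 with no trend and 174 with library weights, and to 14 to 594 over the omissions. The interaction gave 0 under each setting that kept all 8 libraries and 0 to 29 over the omissions. The cause of these changes was not tested, beyond the fewer genes or libraries that some settings use.

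Same-numbered libraries had deviations that correlated at -0.111 to 0.194, so the numbers were not taken as pairs; with the replicate number as a block, 60 genes were called for AG120 against Vehicle, 54 of them shared with the 71, and 213 for AG120_AZA against AZA and 0 for the interaction. Over the omissions, the median difference turned sign in 16 of 40 lists, whose medians with all libraries were -0.519 to 0.226.

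The 18 changes reported here of sign were all in genes that were not called, under omission of 1 library. Over the omissions, the log2 difference ran from -0.82 to 0.36 for D2hgdh, -0.216 to 0.0468 for Idh3b, -0.15 to 0.19 for Idh3g, -0.042 to 0.143 for Dnmt1, -0.36 to 0.21 for Uhrf2, -0.16 to 0.30 for Tet2, -0.56 to 0.21 for Mbd4, -0.22 to 2.36 for Fcer1a, -2.90 to 0.31 for Fcnb, -0.16 to 0.69 for Gata2 and -1.21 to 1.03 for Itgam. With 2 libraries a group and depth unknown, a difference that missed the test is not shown to be absent.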
